A study of Oryza sativa with 16 samples.

Results

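The genes described here are 324 predicted rice gene models whose signal was high in every Nipponbare tissue that was hybridized, of 21761 predicted models with a probe made from their coding sequence (CDS models, 1 probe each). They were selected on their measured values: in each channel the median processed signal of the non-control probes was set to 1000, a signal not well above background was set to 0, the median over the channels of a tissue was taken as its level, and a CDS model was kept where the levels of shoot, root, panicle and callus were each over 25000. Shoots of IR64 (an indica cultivar) and roots, panicles and callus of Nipponbare (a japonica cultivar) were each co-hybridized with shoots of Nipponbare on 4 two-color arrays. Each comparison had 2 replicates, and in each of them the probes were split over 2 array sets. According to the labels the shoots of both cultivars were grown for 10 days on soil in a greenhouse and the roots for 10 days in hydroponic culture, while the study's methods give the shoots an older age. For 1 of the 4 callus arrays, of replicate 1, the description names a comparison of indica with japonica, while its title and source give callus; it was taken as callus. The callus came from the scutellum and was kept for 28 days on a medium with an auxin, and the panicles came from plants on field soil at the late-boot stage. The labels name no transgene, and no treatment beside the callus medium. The RNA of several plants was pooled, and shoot RNA was extracted by another method than the RNA of the other tissues. The dyes were turned round between replicates: IR64, root, panicle and callus carried Cy3 in replicate 1 and Cy5 in replicate 2, so that replicate and dye cannot be told apart. The labels name 2 Nipponbare shoot extracts, and in callus both replicates were set against the same one. Nothing in the labels says that the replicates came from separate cultures or plants, so a spread or a p-value below covers these hybridizations only.

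A CDS model is a gene structure predicted from genome sequence. In plants, transcripts that are abundant in every organ often belong to genes of translation, energy metabolism or the cytoskeleton, and leaves and shoots carry in addition the abundant transcripts of photosynthesis. Callus is a mass of dividing, undifferentiated cells, and roots and unopened panicles hold little photosynthetic tissue. The files pair no CDS model with a gene name or function, and 0 of the 324 identifiers matched the reference gene table, so the models are given by identifier alone and no role can be stated for them. For the same reason the tissue labels could not be checked on marker genes. The probe sequences were not used here, and whether a probe also binds transcripts of other genes was not tested. A signal depends on the probe as well as on the transcript, so levels are compared below within 1 probe only. A lower signal in a tissue can come from fewer cells that hold a transcript or from less of it per cell, which cannot be told apart.

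Brightness in all 4 tissues was uncommon among the CDS models. A level over 25000 was measured in none of the 4 tissues for 20912 CDS models, in 1 tissue for 335, in 2 tissues for 90, in 3 tissues for 100 and in all 4 for 324, or 1.49%. Of the 335 models over the threshold in a single tissue, 148 were so in callus, 146 in shoot, 23 in root and 18 in panicle. Among the other kinds of probe the share over the threshold in all 4 tissues was 1.75% of the 3'-end units (148 of 8476), 1.52% of the ENDS models (218 of 14331), 3.82% of the probes on loci of full-length cDNAs (1430 of 37444) and 44.4% of the probes on single full-length cDNA clones (456 of 1028). The 3'-end units and ENDS models are 2 further classes of the design, whose names the files do not explain. The 324 CDS models came from both array sets, 148 of 10617 on the first and 176 of 11144 on the second. Their identifiers carry 12 prefixes, and the share of a prefix's CDS models that was selected lay between 0.982% and 2.07%.

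The threshold drew a line through a continuous range. Just inside it were 9634.m00408_CDS, whose lowest level was 25104, in panicle, and 9639.m01745_CDS, whose lowest level was 25111, in root. Just outside were 9630.m03076_CDS, at 24889 in shoot and between 31409 and 40091 in the other tissues, and 9631.m04729_CDS, at 24733 in panicle and between 30768 and 76711 in the other tissues. Over the 324 models the lowest of the 4 levels had a median of 48821, and 66 models were over 100000 in all 4 tissues. Every signal behind these levels was well above background, in all 16 hybridizations (1 channel of 1 replicate of a comparison, both array sets together). Where the rule was applied to the channels of replicate 1 alone it chose 313 CDS models, and 291 of them, or 93%, were over 25000 in all 4 tissues in replicate 2. Where it was applied to replicate 2 alone it chose 324, of which 291, or 89.8%, were over 25000 in all 4 tissues in replicate 1.

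The levels over the 324 models are plotted for each hybridization. The median level was 70872 in root, 85345 in panicle, 124450 in callus and 71334 in Nipponbare shoot. In callus the medians of replicates 1 and 2 were 126011 and 124272, while the Nipponbare shoot on the same arrays had medians of 96840 and 56291. The callus medians thus lay closer together than the shoot medians beside them, while the upper quartiles in callus were 220861 and 177670. In root the medians were 64694 and 80442, against 72370 and 77285 for the shoot on the same arrays, and in panicle 75123 and 94549, against 83823 and 76142. Saturation touched the callus values most: in replicate 2, where callus was in Cy5, 86 of the 324 callus spots (26.5%) were saturated, against 1 of the shoot spots beside them. In the other tissue channels between 0 and 33 spots were saturated, in shoot channels between 0 and 12. In all, 22 models were saturated in callus on both of its arrays, so that their callus signal there is only a lower limit, and 229 models had no saturated spot in any channel.

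**Figure D1:**
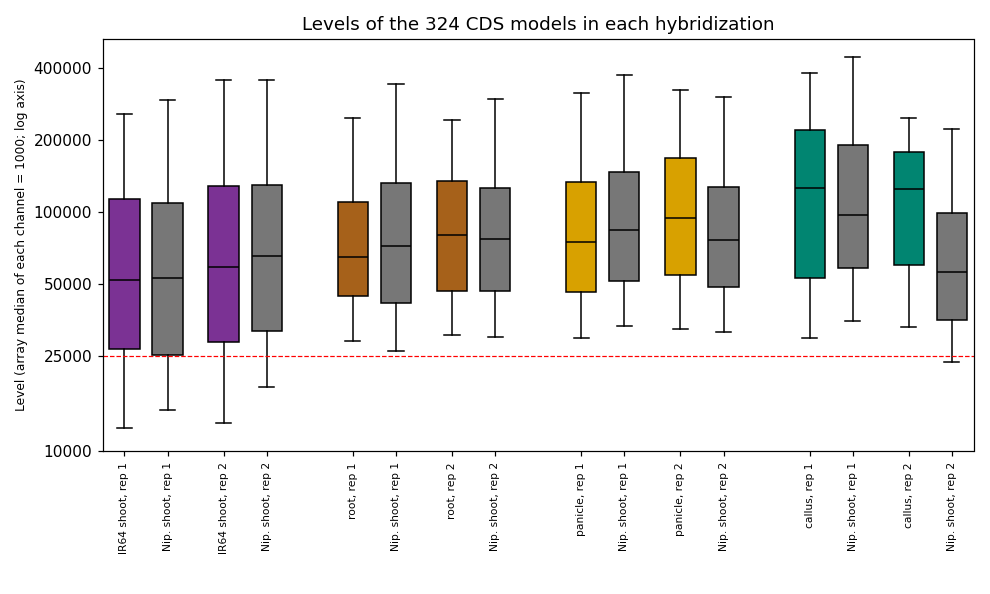
Level of the 324 CDS models in each of 16 hybridizations (y, scaled processed signal with the median of each channel at 1000, log axis). Boxes show the quartiles with the median, whiskers the 5th and 95th percentiles, colored boxes the tissue and grey boxes the Nipponbare shoot on the same arrays, and the dashed line is 25000. Callus had the highest medians, at 126011 and 124272. IR64 shoot, which the rule did not hold to the threshold, had the lowest of the tissues, at 51979 and 58940. The Nipponbare shoot on the same arrays as IR64 was at 53199 and 65318.

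Levels differed among the tissues within most models. The highest of the 4 levels of a model was a median of 2.49 times its lowest, with a range from 1.22 to 27.2 times, and it was under 2 times for 92 models and over 4 times for 43. The highest level was in callus for 168 models, in shoot for 114, in panicle for 37 and in root for 5. The lowest level was in shoot for 180 models, in callus for 57, in panicle for 45 and in root for 42. Most models thus had either their highest or their lowest level in shoot, and 155 had the highest in callus together with the lowest in shoot. Taking each replicate alone, the tissue with the highest level was the same in both for 259 models and the tissue with the lowest for 204. Root was seldom at either end in both replicates, being the highest for 3 models and the lowest for 14.

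The ratios on the same array, log2 of the tissue over Nipponbare shoot, were also spread widely. Over the 324 models the median of the mean of both replicates was 0.20 for root, 0.37 for panicle (323 models, since an outlier spot was left out for 9631.m02533_CDS) and 0.65 for callus, beside -0.05, -0.04 and -0.05 over all probes. The plot of the ratios shows models on either side of 0, and the range between the quartiles was -0.67 to 0.61 in root, -0.73 to 0.73 in panicle and -0.54 to 1.47 in callus. The mean ratio lay within 0.5 of 0 for 121 models in root, 79 in panicle and 61 in callus. The replicates gave unequal medians. In callus the median was 0.25 in replicate 1 and 1.05 in replicate 2, in panicle 0.13 and 0.53, and in root 0.09 and 0.31, so that in each the ratio was higher where the tissue was in Cy5; the part of the dye in this was not tested. Both replicates were above 0 for 177 models in callus and below 0 for 104, and the signs were opposite for 43. In panicle 171 models were above 0 in both replicates and 121 below, and in root 174 and 130. The 3 comparisons draw on 2 shoot extracts, with callus set against only 1 of them in both replicates. The shoot values were used by the rule, so these ratios are a description and carry no test.

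**Figure D2:**
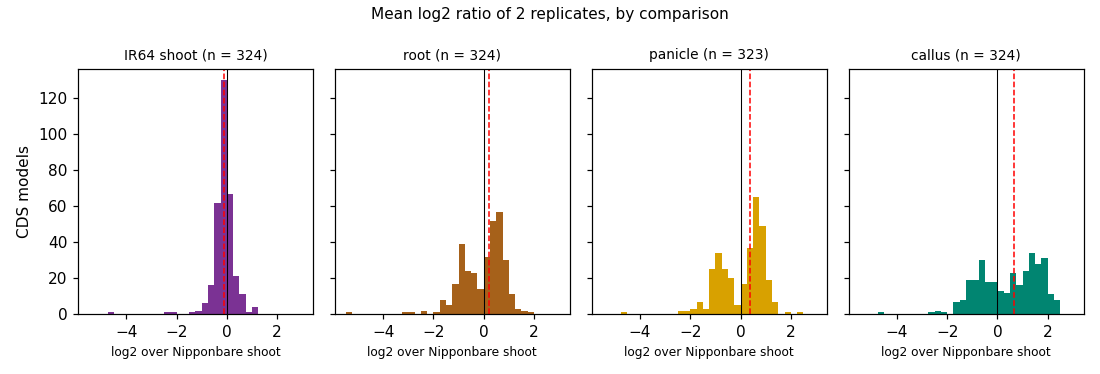
Number of CDS models (y) by log2 ratio over Nipponbare shoot (x, mean of 2 replicates, bins of 0.25) in 4 comparisons; the dashed line is the median and the solid line 0. The IR64 ratios form 1 narrow peak with a median of -0.10, while root, panicle and callus each have a group of models on either side of 0, with medians of 0.20, 0.37 and 0.65.

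Fewer models were at least 2-fold higher in both replicates in root and panicle than in callus, while more were at least 2-fold lower. In root, 8 models were at least 2-fold higher than in shoot and 30 at least 2-fold lower, where 14.6% and 10.4% of all probes were. In panicle 6 models were higher and 23 lower, where 13.0% and 10.6% of all probes were. In callus 95 models were higher and 21 lower, where 16.5% and 11.9% of all probes were. The rule used these contrasts, and a model low in any tissue could not be selected, so nothing is read from the counts against those shares. The counts depended on the replicate: in replicate 2 alone 32 models were 2-fold higher in root, 80 in panicle and 164 in callus, and in replicate 1 alone 11 in root, 11 in panicle and 95 in callus. In replicate 2 alone 39 were 2-fold lower in root, 31 in panicle and 22 in callus, and in replicate 1 alone 49 in root, 61 in panicle and 67 in callus. The shares of all probes above need both replicates and keep saturated probes, so neither these counts nor the next are set beside them. With the models that had a saturated spot on a callus array left out, 73 were 2-fold higher in callus and 17 lower, and the median callus ratio was 0.34. Over the 229 models with no saturated spot in any channel it was 0.55. The callus median of the other bright probes was 0.33 for the 218 ENDS models, 0.37 for the 456 single-clone probes, -0.09 for 1425 of the probes on full-length cDNA loci and -0.09 for 147 of the 3'-end units with both replicates measured, beside 0.65 here.

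The ratios farthest from 0 were below it, in models that were highest in shoot. For 9640.m01917_CDS the levels in replicates 1 and 2 were 12616 and 52537 in root, 19540 and 102523 in panicle and 11193 and 58932 in callus, against a lowest of 314442, a median of 884668 and a highest of 1880772 over the 8 hybridizations of Nipponbare shoot. No tissue value came near a shoot value, and the level was far higher in replicate 2 in each tissue. Its mean log2 ratio was -5.33 ± 0.29 in root, -4.74 ± 0.92 in panicle and -4.67 ± 1.01 in callus (SD, n = 2 each), and 5 of its shoot spots were saturated, so that the ratio understates the difference on those arrays. In replicate 1 it was under 25000 in root, panicle and callus alike, and its selection rests on the median with replicate 2.

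A similar order was found for 9639.m00792_CDS without any saturated spot. Its levels were 25442 and 30523 in root, 35420 and 52061 in panicle and 32680 and 46885 in callus, against 205430 to 252648 in Nipponbare shoot, with a median of 230257. The ratios were -3.10 ± 0.16 in root, -2.46 ± 0.45 in panicle and -2.36 ± 0.40 in callus. For 9637.m02958_CDS the levels were 46594 and 72504 in root, 63875 and 102703 in panicle and 31785 and 56408 in callus, against 235116 to 382514 in shoot, and its callus ratio was -2.63 ± 0.88. For 9631.m04964_CDS they were 85442 and 123401 in root, 103129 and 166412 in panicle and 87037 and 165787 in callus, against 312217 to 1019667 in shoot, where 4 spots were saturated, and its callus ratio was -2.45 ± 0.41. In all 3 models the tissue values and the shoot values did not overlap.

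Models higher outside the shoot showed smaller ratios and more varied patterns. In 9629.m01172_CDS root stood apart, with levels of 511565 and 236919 in root, the second of them saturated, against 43213 to 132730 in Nipponbare shoot, and a root ratio of 1.83 ± 0.21 (SD, n = 2). Panicle (56615 and 66260) and callus (37255 and 49208) lay within or below the range of its shoot levels. In 9638.m01716_CDS the root levels were 80381 and 116203, against 18541 to 62637 in shoot, and the root ratio was 1.69 ± 0.50. Its panicle levels of 75041 and 87748 were also above every shoot level, while its callus level of 60971 in replicate 2 was not.

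Panicle stood apart in 9634.m01167_CDS. Its levels were 280788 and 387387 in panicle, 123297 and 155646 in root and 24921 and 28350 in callus, against 39556 to 98353 in shoot. All 3 tissues were thus outside the range of the shoot levels, panicle and root above it and callus below. The panicle ratio was 2.41 ± 1.26, with a shoot level beside it of 98353 in replicate 1 and 39891 in replicate 2, the root ratio 1.51 ± 0.43 and the callus ratio -0.76 ± 0.47. In 9629.m00314_CDS the levels were 68844 and 72965 in root, 99004 and 111145 in panicle and 52614 and 55121 in callus, against 14451 to 33575 in shoot, and its panicle ratio was 1.81 ± 0.32.

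The largest callus ratios belonged to 9629.m00052_CDS and 9638.m01618_CDS, which had the callus-high, shoot-low order found in 155 of the models. In 9629.m00052_CDS the levels were 46395 and 65552 in root, 62447 and 76489 in panicle and 174292 and 164731 in callus, against 11923 to 41874 in shoot, and the callus ratio was 2.48 ± 0.52. In 9638.m01618_CDS they were 66485 and 101800 in root, 83251 and 146667 in panicle and 200634 and 169903 in callus, the second of the callus values saturated, against 12669 to 49780.2 in shoot, and the callus ratio was 2.47 ± 0.57. In neither model did a tissue value fall within the shoot range.

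**Figure D3:**
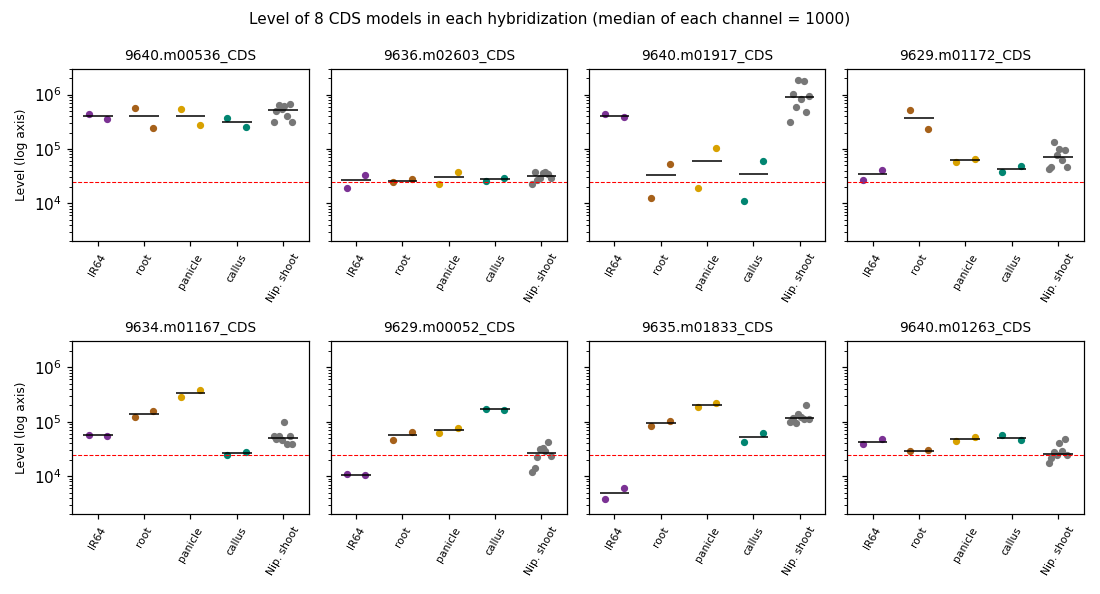
Level of 8 of the CDS models in each hybridization (y, log axis; points, 2 hybridizations for each tissue and 8 for Nipponbare shoot; lines, median; dashed line, 25000). Levels of different models cannot be set against each other; within a model, 9636.m02603_CDS has all its tissues close together, 9640.m00536_CDS has saturated spots in every tissue, 9640.m01917_CDS is high in both shoots, root is high in 9629.m01172_CDS, panicle in 9634.m01167_CDS and callus in 9629.m00052_CDS, IR64 is low in 9635.m01833_CDS and above the Nipponbare shoot of the same arrays in 9640.m01263_CDS.

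By the rule for naming, 9640.m00536_CDS, 9632.m00145_CDS and 9629.m03712_CDS stand for the models far over the threshold in every tissue. Callus, the lowest tissue by measured level, was saturated in both replicates in all 3. Their levels are thus lower limits, and neither an order among the models nor their lowest tissue is read. In 9640.m00536_CDS the levels were 559184 and 244186 in root, 539118 and 270229 in panicle and 376906 and 256600 in callus, against 309955 to 658014 in shoot, with a median of 512502. The values of root, panicle and callus in replicate 2, those of panicle and callus in replicate 1 and 4 of the shoot values were saturated, so how even this model was cannot be read. In 9632.m00145_CDS the levels were 395918 and 242733 in root, 523471 and 268702 in panicle and 376906 and 253432 in callus, against 214442 to 658014 in shoot. In 9629.m03712_CDS they were 287466 and 289689 in root, 400657 and 423423 in panicle and 385428 and 180583 in callus, against 133199 to 501099 in shoot. In these last 2 models every measured tissue value lay within the range of the shoot values, and the root and panicle spots of replicate 2 were saturated as well as those of callus.

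The 3 most even models without a saturated spot were 9636.m02603_CDS, 9635.m00863_CDS and 9629.m01538_CDS, all near the threshold. In 9636.m02603_CDS the levels were 24387 and 28151 in root, 23153 and 37838 in panicle and 26294 and 28835 in callus, against 22303 to 37983 in shoot, and the highest tissue level was 1.22 times the lowest. In 9635.m00863_CDS they were 23946 and 26308 in root, 29303 and 34962 in panicle and 30719 and 31257 in callus, against 26244 to 37916 in shoot, with a factor of 1.30. In 9629.m01538_CDS they were 27384 and 26023 in root, 33662 and 32973 in panicle and 25977 and 24563 in callus, against 14497 to 39295 in shoot, with a factor of 1.32. Nearly all tissue values of these models thus lay within the range of the shoot hybridizations, the exception being the root replicate 1 value of 9635.m00863_CDS, below it. In 9629.m01538_CDS, however, the low end of that range is a single shoot value far from the others, beside panicle replicate 1. The next lowest shoot value was 29667, and all root and callus values of this model were below that.

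The IR64 shoot was not used to select the models, although the Nipponbare shoot channels on its arrays were. The median level of the 324 models in IR64 was 56563, and 254 were over 25000 there. The remaining 70 lay between 3548 and 24985. In 56 of these 70 the Nipponbare shoot on the same arrays was also at or under 25000, and over all 324 models it was so for 66. The Nipponbare shoot on the arrays of root, panicle and callus was so for 0. The rule took the median over all 8 Nipponbare shoot hybridizations, most of them on those other arrays. The 0 there was thus largely fixed by the selection, and nothing is read from 66 against 0. The median of the Nipponbare shoot levels was 57779 on the IR64 arrays and 74537 on the other arrays. All arrays of a comparison were scanned on the same day and no 2 comparisons shared one, so a scan cannot be told apart from its comparison. Of the 70 models, 66 had their highest Nipponbare level in callus and 68 their lowest in shoot.

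On the same arrays, IR64 shoot and Nipponbare shoot were close for most of the models. The median log2 ratio of IR64 over Nipponbare shoot was -0.10, with medians of -0.01 in replicate 1 and -0.19 in replicate 2, and quartiles of -0.27 and 0.04. For 280 of the 324 models (86.4%) the mean ratio lay within 0.5 of 0, beside 79.3% of all probes and 82.8% of all CDS models. Among the other kinds of probe that were bright in all 4 tissues the share was 78.9% to 82.1%, and none of these differences was tested. Both replicates were above 0 for 63 models and below 0 for 148, and the signs were opposite for 113. In the 168 models that were highest in callus the median was 0.01 in replicate 1 and -0.35 in replicate 2, and in the 114 that were highest in shoot it was -0.07 in both. The replicates, which differ in dye, thus gave unlike medians in the callus-high models and like ones in the shoot-high models; the part of the dye in this was not tested.

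By limma, fitted over all probes with Benjamini-Hochberg adjustment over 83038 of them and a threshold of 0.05, 3 of the 324 models were higher in IR64 shoot (0.926%, beside 2.86% of all probes) and 5 were lower (1.54%, beside 4.27%). The Nipponbare shoot values in these ratios were part of the rule, so the models were not chosen apart from the tested values. Where models were chosen without the shoot channels of the IR64 arrays, 3 were called higher and 5 lower. With models that had a saturated spot on an IR64 array left out, 3 were higher and 4 lower. At an unadjusted p under 0.05, 9 of the 324 models were higher and 21 lower, without a share of all probes to set them against. With the replicate as a block the counts were 3 higher and 3 lower (0.926% each, beside 3.77% and 5.24% of all probes). With the normexp background correction and loess normalization in place of the processed signals they were 14 higher and 24 lower (4.32% and 7.41%, beside 3.83% and 5.14% of all probes). The called share of the models was thus below that of all probes with the processed signals and above it with normexp, and neither difference was tested. With only the IR64 arrays in the fit, limma called 0 models in either direction, as it called 0 of all probes. At an unadjusted p under 0.05 this fit had 10 models higher and 20 lower, again without a share of all probes beside them.

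**Figure D4:**
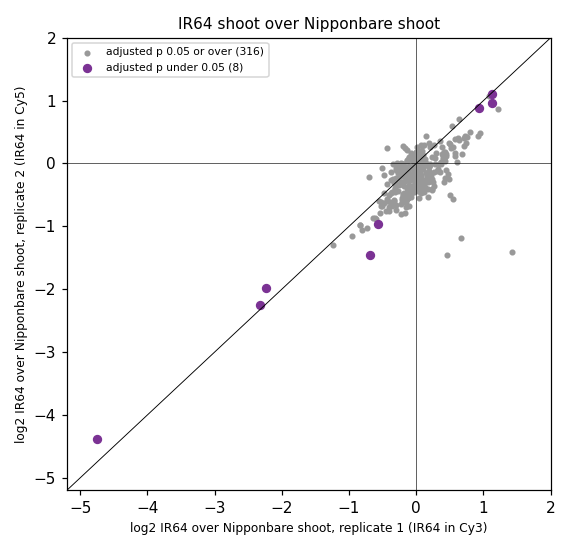
Log2 ratio of IR64 shoot over Nipponbare shoot in replicate 1 (x) and replicate 2 (y) for the 324 CDS models; the diagonal marks equal ratios. The 8 models with a limma adjusted p under 0.05 are 5 below 0 and 3 above 0 in both replicates, and the model at the lower left is 9635.m01833_CDS, at -4.75 and -4.38.

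The 3 clearest differences were falls of the signal in IR64. The probes were designed on the Nipponbare genome. Whether the cultivars differ in sequence under these or the other probes was not tested, so a lower signal is not read as less transcript. In 9635.m01833_CDS the levels in replicates 1 and 2 were 3736 and 5965 in IR64 shoot, against 99774 and 119831 in the Nipponbare shoot on the same arrays, which is 23.7-fold lower, with a log2 ratio of -4.57 (SE 0.33) and a limma adjusted p of 0.00101. In the Nipponbare tissues this model was at 84490 and 104070 in root, 189189 and 219847 in panicle and 42048 and 61352 in callus. In 9634.m04908_CDS the levels were 3186 and 5256 in IR64, against 15923 and 24678 in Nipponbare shoot, with a log2 ratio of -2.29 (SE 0.18) and a limma adjusted p of 0.000853. In 9629.m00314_CDS they were 3280.2 and 3816 in IR64, against 15317 and 14451 in Nipponbare shoot, with a log2 ratio of -2.11 (SE 0.16) and a limma adjusted p of 0.00133. In each of the 3 models both IR64 values were below every value of every Nipponbare tissue. Over the alternatives their limma adjusted p reached 0.216 at most, with only the IR64 arrays in the fit, and was under 0.05 in the 8 others.

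The 2 further falls were smaller. In 9631.m04964_CDS the levels were 194761 and 353070 in IR64, against 312217 and 928270 in Nipponbare shoot, with a log2 ratio of -1.07 (SE 0.23), a limma adjusted p of 0.0468 and a limma adjusted p of 0.0659 with the replicate as a block. Its log2 ratio was -0.69 in replicate 1, where the Nipponbare shoot value was saturated and only a lower limit, so this ratio can understate the fall. It was -1.45 in replicate 2, where the IR64 value was saturated, so this ratio can overstate it, and the size of the fall is not read. 9629.m00749_CDS lies outside the rule for naming and was added after its values were seen. Its levels were 10592 and 8377 in IR64, against 15679 and 15717 in Nipponbare shoot. Its log2 ratio was -0.77 (SE 0.16), with a limma adjusted p of 0.0423. With the replicate as a block its limma adjusted p was 0.0540, without replicate 1 of IR64 shoot 0.0644 and without replicate 2 it was 0.230. The values of 9631.m04964_CDS overlapped between the cultivars, with a saturated spot in IR64 in replicate 2 and in Nipponbare shoot in replicate 1, and those of 9629.m00749_CDS did not.

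The 3 rises were each near 2-fold, and with either replicate of IR64 shoot left out none of them had a limma adjusted p under 0.05. In 9640.m01263_CDS the levels were 38497 and 48026 in IR64, against 17466 and 21519 in Nipponbare shoot, with a log2 ratio of 1.12 (SE 0.22) and a limma adjusted p of 0.0381. In 9639.m02303_CDS they were 36446 and 41667 in IR64, against 16493 and 20633 in Nipponbare shoot, with a log2 ratio of 1.05 (SE 0.17) and a limma adjusted p of 0.0190. In 9637.m00203_CDS they were 41252 and 41658 in IR64, against 21389 and 22318 in Nipponbare shoot, with a log2 ratio of 0.91 (SE 0.18) and a limma adjusted p of 0.0285. On the IR64 arrays the values of the cultivars did not overlap in any of the 3. All 3 had their lowest Nipponbare level in shoot, and their 2 shoot values on the IR64 arrays were the lowest of the 8. Against all 8 shoot values, the IR64 value of replicate 2 was just above the highest in 9640.m01263_CDS (48026 against 47856) and in 9639.m02303_CDS (41667 against 41534), and both IR64 values of 9637.m00203_CDS were within the shoot range. Whether the 2 cultivars differ in sequence under these probes, which were designed on the Nipponbare genome, was not tested.

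The other 3 models described above as high in shoot were not called in IR64. The level of 9640.m01917_CDS was 436464 and 383860 in IR64, against 314442 and 1036481 in Nipponbare shoot, with log2 ratios of 0.46 and -1.46. The Nipponbare shoot spot of replicate 1 and the IR64 spot of replicate 2 were saturated, so both values are lower limits and no direction is read from these ratios. For 9639.m00792_CDS it was 179954 and 234649 in IR64, against 205430 and 227848 in Nipponbare shoot, and the ratio was -0.11 ± 0.13 (SD, n = 2). For 9637.m02958_CDS it was 189687 and 368593 in IR64, against 254113 and 306867 in Nipponbare shoot, and the ratio was -0.10 ± 0.48 (SD, n = 2). In each of these the IR64 shoot, like the Nipponbare shoot, was above all root, panicle and callus values of the same model.

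Of the 324 models, 4 pairs have identifiers with consecutive numbers; they were chosen by identifier after the values had been seen, and the files do not say how such numbers relate to position. In 9634.m01281_CDS and 9634.m01282_CDS the mean log2 ratios over shoot were -1.61 and -1.74 in root, -1.77 and -1.56 in panicle and -0.98 and -1.25 in callus, so both were lower in every tissue than in shoot. In 9636.m01064_CDS and 9636.m01065_CDS they were -0.18 and -0.67 in root, -0.53 and -1.06 in panicle and -0.32 and -0.37 in callus. The other 2 pairs did not run together. In 9636.m03686_CDS and 9636.m03687_CDS the ratios were -0.71 and 0.86 in root, -0.60 and 0.97 in panicle and -0.39 and 2.02 in callus. In 9630.m00489_CDS and 9630.m00490_CDS they were -1.06 and -0.04 in root, -0.95 and 0.52 in panicle and -1.11 and 0.50 in callus. The replicate 2 callus spots of 9636.m03687_CDS, 9630.m00489_CDS and 9630.m00490_CDS were saturated. So were the replicate 2 root and panicle spots of 9630.m00490_CDS. These ratios can thus be too low.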

How the data were processed

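Signals were taken from 16 two-color oligonucleotide arrays. The deposited intensity values are processed signals of Cy3 and Cy5, which the authors made with Agilent Feature Extraction (8.1.1.1 in the file headers, 7.5 in the submitters' processing notes): spatial detrending served as background, and linear and LOWESS dye normalization were run array by array, with no scaling between arrays. The deposited log10 ratios of the same run and the mean pixel and background intensities served for alternatives. The deposited flags, of 0 or 1, mark signals well above background, saturated or outlying.

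Levels were scaled as described in the report. Log2 ratios of the processed signals were fitted with limma 3.58.1 in R 4.3.3, with both array sets fitted apart, all comparisons in the same fit and no dye term; outlier spots were left out and p-values were adjusted over both sets. Ratios of root, panicle and callus were used by the rule and were not tested. Named models were those with the 3 highest lowest levels, the 2 highest and 2 lowest ratios of each tissue, the 3 largest rises and falls in IR64, the 3 smallest ranges without saturation and those next to the threshold; sign, saturation and threshold conditions applied. The members and lists were chosen with earlier results of these data known.

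Same-numbered replicates share, per the labels, a dye orientation and mostly a shoot extract. Their deviations correlated between comparisons over probes with r from 0.216 to 0.479, so a replicate block was fitted as an alternative. Other alternatives were centring, normexp (offset 50) with loess, other thresholds and scalings, and leaving out replicates. The number of arrays limits the precision.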

Additional observations from a re-analysis of the deposited data

Results flagged for a closer look

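In 23 named models the 8 Nipponbare shoot hybridizations were examined for a value far from the others, which chance gives in about 1 of 20 such groups, and 3 models had one. In 9629.m01538_CDS the shoot beside panicle replicate 1 was at 14498, and the next lowest at 29667. In 9631.m04964_CDS the shoot beside IR64 replicate 1 was at 312217, and the next lowest at 599323; that spot was saturated, so 312217 is a lower limit and it is not shown to be low. In 9634.m01167_CDS the shoot beside panicle replicate 1 was at 98353, and the next highest at 55759. In 9634.m01167_CDS the panicle ratio was above 0 and the callus ratio below 0 in both replicates, a difference of 3.16 on the log2 scale, and in 9635.m01833_CDS likewise, a difference of 2.35; these differences were not tested.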

How the results depend on the processing

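The rule gave between 220 and 401 CDS models under the alternatives other than normexp with loess and Aquantile scaling, which gave 200, and 313 to 324 with a replicate left out. With only the IR64 arrays in the fit, 0 models were called higher and 0 lower in IR64 shoot by limma, as 0 of all probes were. With normexp and loess 14 were higher and 24 lower (4.32% and 7.41%, beside 3.83% and 5.14% of all probes). With the replicate as a block, 3 were higher and 3 lower (0.926% each, beside 3.77% and 5.24% of all probes). Without a replicate of IR64 shoot, 0 (either one) were higher and 3 to 4 lower. A fit without a replicate keeps only 1 replicate of IR64 shoot, so nothing is read from these counts about the models. Centring gave 10 models 2-fold higher in panicle. With 1 replicate alone, 11 to 32 were 2-fold higher and 39 to 49 lower in root, 11 to 80 higher and 31 to 61 lower in panicle, and 95 to 164 higher and 22 to 67 lower in callus. The cause was not tested, but a single replicate is a looser condition than both. With 1 replicate alone the median log2 ratio was -0.19 to -0.01 in IR64, 0.09 to 0.31 in root, 0.13 to 0.53 in panicle and 0.25 to 1.05 in callus. With both replicates the callus median was 0.34 without models saturated on the callus arrays. It was 0.55 over the 229 models with no saturated spot in any channel.

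Named models whose uncalled IR64 log2 ratio changed sign when a replicate was left out were 9629.m03712_CDS (-0.20 to 0.15), 9634.m00408_CDS (-0.11 to 0.081), 9635.m00863_CDS (-0.064 to 0.11), 9637.m02958_CDS (-0.43 to 0.24), 9639.m01745_CDS (-0.16 to 0.24), 9640.m00536_CDS (-0.51 to 0.50) and 9640.m01917_CDS (-1.46 to 0.46). In these last 2 models the Nipponbare shoot spot of replicate 1 and the IR64 spot of replicate 2 were saturated, on opposite sides of the ratio, so no sign is read. With normexp the IR64 ratio of 9638.m01618_CDS was -0.70 with a limma adjusted p of 0.0183. Saturation limits the upper end of the levels, mostly in callus, and 2 hybridizations a tissue limit every ratio.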
